A study of Mus musculus with 8 samples.

Results

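Heat shock proteins and J-domain proteins are the chaperones that fold, refold or hand over other proteins. The genes described here are those whose symbol begins with Hsp or Dnaj, leaving out Hspg2 (perlecan, a matrix proteoglycan) and pseudogene names. Of 54091 genes in the deposited table, 74 carried such a name, and 65 of them reached a minimum of 10 normalized reads in 4 or more libraries out of 8 (28 Hsp and 37 Dnaj genes). A normalized read is a read count divided by 1 scaling factor per library. The other 9 were Dnajb3, Dnajb7, Dnajb8, Dnajb13, Dnajc5b, Dnajc5g, Dnajc6, Dnajc22 and Hspb9, of which 5 had 0 reads in all 8 libraries and the rest at most 6 reads in any library. No member passed the minimum through 1 group alone, since the lowest value of any member in any library was 24.5 normalized reads, for Hspa1b.

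RNA came from white quadriceps, a muscle of fast glycolytic fibres, of chow-fed male mice aged 11 to 14 weeks, collected in the morning. The control group was 4 mice with loxP-flanked Acot2 (Loxp/Loxp). The Acot2 mKO group was 4 mice labelled CKM Cre, in which a Cre recombinase under the muscle creatine kinase promoter removed Acot2 in muscle. The control label names no Cre, so Cre itself and the loss of Acot2 cannot be told apart, and non-muscle cells of the tissue keep Acot2. Each library came from 1 animal, and totals ran from 30415436 to 48834284 reads.

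The label check and the markers of the tissue were as follows. Acot2, a mitochondrial acyl-CoA thioesterase and the gene removed, had 213, 149, 251 and 240 normalized reads in control replicates 1 to 4 and 43.8, 42.8, 53.7 and 48.9 in Acot2 mKO replicates 1 to 4. Its log2 fold change was -2.13 (SE 0.18, limma adjusted p = 0.000962, exact two-sided permutation p = 0.0286, the smallest that 4 against 4 can give). The 6 fast glycolytic fibre markers were present in every library, with summed levels from 3962700 to 4777700 in control libraries and from 3698200 to 4537900 in Acot2 mKO libraries. Adipocyte markers summed to 21458 in control replicate 2 and 9886 in control replicate 3, against 2775 to 4288 in the other 6 libraries. Slow fibre markers summed to 6160 in Acot2 mKO replicate 3 and 16308 in replicate 4, against 1586 to 2100 elsewhere. Myh2, the myosin of oxidative fast fibres, formed a pair of separate clusters, with 797 to 7832 normalized reads in replicates 1 and 2 of each group and 50366 to 73690 in replicates 3 and 4 of each group. Markers of fibre type and fat thus differed between animals of one genotype.

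HSP70 proteins bind and release short hydrophobic stretches of unfolded proteins in a cycle driven by ATP. J-domain proteins (the Dnaj genes) bring substrates and trigger ATP hydrolysis, and nucleotide exchange factors reset the cycle. HSP90 proteins finish the folding of particular clients such as kinases and receptors. The HSP60 chaperonin encloses proteins in the mitochondrial matrix, and small heat shock proteins hold damaged proteins without ATP. In skeletal muscle, small heat shock proteins bind sarcomere and Z-disc proteins, and the family is known for its response to exercise and heat. Endoplasmic reticulum chaperones belong to the unfolded protein response.

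The 65 genes were grouped by the compartment of their product: 25 in the cytosol (11 of them Dnaj genes), 14 in the endoplasmic reticulum (11), 10 in mitochondria (7), 6 small heat shock proteins, and 10 in other places or with no assigned place (8). Of all reads on these genes, the cytosolic group took 49.0%, the mitochondrial group 18.2%, the small heat shock proteins 12.8%, the endoplasmic reticulum group 12.7% and the remaining genes 7.23%. Only 5 genes, Hsp90ab1, Hspa8, Hspa9, Hspb8 and Dnaja2, carried 50.7% of the reads. To compare levels between genes, normalized reads were divided by the length of the gene's exons in kb. On that scale Hspa8, the constitutive cytosolic HSP70 (HSC70), stood at 10190 ± 676 and Hsp90ab1, the constitutive HSP90, at 10139 ± 417 (SD, n = 8). Their difference was smaller than either SD. Of the 50-base stretches of their transcripts, 39.4% for Hspa8 and 3.44% for Hsp90ab1 also occur in other genes. Shared sequence may thus affect the level of Hspa8 more, and the SD does not include this. They were followed by Hspb8 at 6635 ± 739, Hspa9 at 4774 ± 546 and Hspb6 at 2851 ± 578 reads per kb. Hspb6 and Dnaja2, which stood at 2514 ± 159.8, did not differ beyond their spread.

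**Figure D1:**
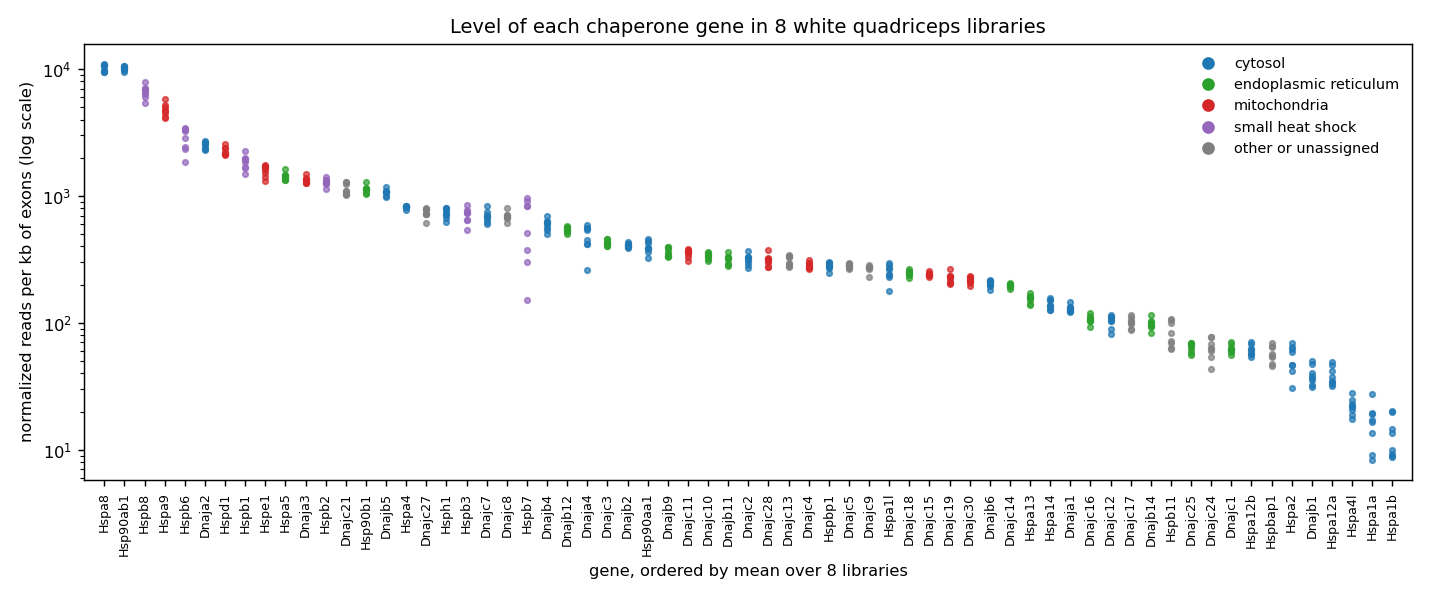
Normalized reads per kb of exons (y axis, log scale) of the 65 genes in each of the 8 libraries (points), ordered by their mean and coloured by compartment. The level runs from 10190 for Hspa8 to 13.1 for Hspa1b, and the points of most genes lie close together except those of Hspb7.

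The lowest 2 of the 65 on this scale were the genes of the stress-inducible HSP70, Hspa1a at 16.3 ± 6.15 and Hspa1b at 13.1 ± 4.74 reads per kb. They lie on chromosome 17 and are nearly identical: 66.3% of the 50-base stretches of Hspa1a transcripts and 62.3% of those of Hspa1b also occur in other genes, most often in each other. Reads that match both genes could be divided between them by the counting or left out, and the sources used here do not say which. The sum of the 2 genes is safer against division but not against loss, so their levels and ranks may be too low. The regions just before their start sites are shown because these genes stood lowest on this scale and show how alike the 2 copies are. They come from RefSeq on GRCm38.p6, minus strand, chr17:34972157-34972406 for Hspa1a and chr17:34959239-34959488 for Hspa1b, and each is 250 bases long and ends at the start site. Capitals mark a pair of inverted heat shock units (GAANNTTC or TTCNNGAA, searched on both strands), the binding pattern of heat shock factors. The 2 regions differ at 3 of 250 positions, and the match begins 104 bases before the start in both.
Hspa1a: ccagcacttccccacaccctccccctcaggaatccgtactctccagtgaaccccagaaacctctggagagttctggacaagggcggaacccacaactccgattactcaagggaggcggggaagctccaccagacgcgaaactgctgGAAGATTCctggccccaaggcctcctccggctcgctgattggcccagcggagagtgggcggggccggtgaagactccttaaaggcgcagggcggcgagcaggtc
Hspa1b: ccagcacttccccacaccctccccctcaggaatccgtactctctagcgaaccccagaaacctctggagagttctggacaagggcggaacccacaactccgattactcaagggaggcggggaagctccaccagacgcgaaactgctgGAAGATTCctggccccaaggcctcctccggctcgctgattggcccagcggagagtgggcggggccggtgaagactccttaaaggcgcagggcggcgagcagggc

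Hspa1a had 40.2, 24.6, 81.2 and 56.3 normalized reads in control replicates 1 to 4 and 50.5, 26.9, 49.1 and 58.1 in Acot2 mKO replicates 1 to 4. Hspa1b had 25.1, 25.7, 56.4 and 55.2 in controls and 27.8, 24.5, 41.1 and 38.2 in Acot2 mKO libraries. In sum the 2 genes had 65.4, 50.4, 137.5 and 111.5 in control (91.2 ± 40.4, SD, n = 4) and 78.3, 51.3, 90.2 and 96.3 in Acot2 mKO libraries (79.0 ± 19.9). The groups overlapped, and control replicate 3 was the highest library for both genes. Each value rests on 20 to 85 reads, so counting error is large relative to these values. The log2 fold change was -0.06 (SE 0.36) for Hspa1a and -0.22 (SE 0.33) for Hspa1b, neither past the threshold.

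Hspa1l, the HSP70 gene next to Hspa1a that is best known from testis, was far more abundant than its neighbours. It stood at 251 ± 37.8 reads per kb and had 608 ± 124 normalized reads in controls and 635 ± 66.4 in Acot2 mKO muscle. Its exons overlap those of Gm10501 on the opposite strand over 1778 bases, and 71.4% of its 50-base stretches occur in another gene. The library kit keeps strand, per the labels, but the sources used here do not say whether strand entered the counting, so reads of the 2 genes may not be separated.

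Hspa2, another HSP70 known from testis, stood at 52.6 ± 13.3 reads per kb, and Dnajb1, the inducible J protein that works with HSP70, at 39.1 ± 6.86. Hsp90aa1, the inducible HSP90, reached 396 ± 44.0 reads per kb, well under Hsp90ab1. Of its 50-base stretches 47.5% are shared with other genes, against 3.44% for Hsp90ab1. The level of Hsp90aa1 may thus be too low and the gap overstated, if reads that match several genes were left out. Hsph1 and Hspa4, which belong to the HSP110 family of exchange factors, stood at 729 ± 62.8 and 820.2 ± 20.6.

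The question of the comparison was whether chaperone transcripts differ when muscle loses Acot2. No member passed the test. In all, 0 of 65 had a limma adjusted p under 0.05, where the background was 0.0147% of 13638 genes tested (2 genes). At an unadjusted p under 0.05 the count was also 0 of 65, against 2.91% of all genes, and limma-voom on the recovered reads called 0 as well. The smallest unadjusted p was 0.0779, for Dnajc11, and the adjusted p was 0.9995 for every member. The fits limit how large a difference could be. The 95% confidence interval of the log2 fold change lay within 0.5 of 0 for 55 of 65 genes (background 64.3%), within 0.25 for 30, and within 1 for 64. The exception to the last was Hspb7, with an interval from -0.77 to 1.53.

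**Figure D2:**
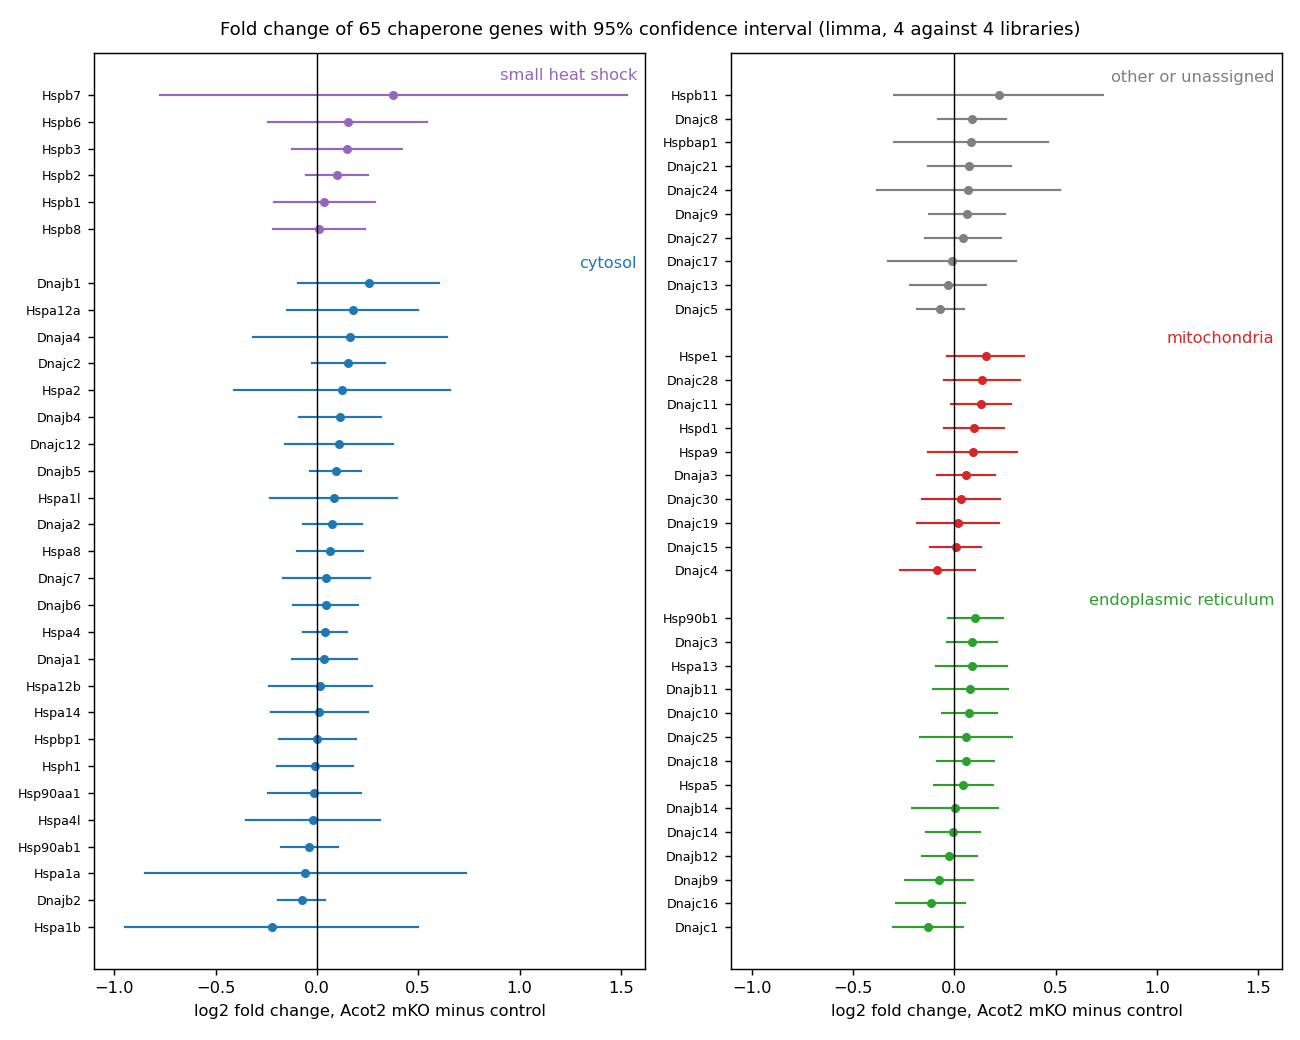
Log2 fold change of each of the 65 genes, Acot2 mKO minus control (x axis), with its 95% confidence interval from limma, by compartment, 4 libraries per group. All intervals include 0, and those of Hspb7, Hspa1a and Hspa1b are the widest.

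Estimates above 0 were the more frequent sign. The log2 fold change was above 0 in 49 of 65 members, against a background of 51.7%, and its median was 0.06 against 0.005 over all genes tested. The SD of single members between libraries had a median of 0.12 on the log2 scale. That SD does not measure the uncertainty of the median log2 fold change. The sign count was 37 of 65 without control replicate 2 (median 0.02) and 45 to 52 of 65 without any other single library. With 2 libraries left out, it was 35 of 65 without Acot2 mKO replicates 3 and 4 (median 0.01) and 44 of 65 without control replicates 2 and 3. Control replicate 2, the library with the highest adipocyte sum, had the lowest value of all 8 libraries in 25 of 65 members (38.5%), against 18.6% of all genes tested. Acot2 mKO replicate 3 had the highest value in 16 of 65 (24.6%), against 18.6% of all genes tested. The part of fat and fibre content in the sign count was not tested, since leaving out a library removes all of its traits together. In bulk tissue, fewer cells of a type and less RNA per cell cannot be told apart.

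Estimates of 18 of the 25 cytosolic genes lay above 0 (median log2 fold change 0.04). Hspa8 had 23096, 22578, 26327 and 23391 normalized reads in controls and 25975, 22616, 25833 and 25338 in Acot2 mKO libraries, a log2 fold change of 0.07 (SE 0.07). Hsp90ab1 had 26521, 26863, 25125 and 24993 in controls and 26327, 25918, 24984 and 23673 in Acot2 mKO libraries, with -0.04 (SE 0.06). For both, the groups overlapped, and the highest library was 1.17 and 1.13 times the lowest. Dnaja2, an abundant J protein partner of HSC70, had 7144 ± 374 and 7535 ± 516 normalized reads (SD, n = 4 each).

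The groups also overlapped in each of the inducible cytosolic genes Hsp90aa1, Hsph1 and Dnajb1. Hsp90aa1 had 1344 ± 149 normalized reads in controls and 1335 ± 172 in Acot2 mKO muscle, and Hsph1 3086 ± 241 and 3074 ± 326. Dnajb1 had 99.6, 129.8, 123 and 103 in controls and 114, 119, 153 and 161 in Acot2 mKO libraries, a log2 fold change of 0.26 (SE 0.16, interval -0.09 to 0.61). Its 2 highest libraries were Acot2 mKO replicates 3 and 4, and the groups overlapped. Dnajb5, a J protein abundant in this muscle, had 3796 ± 189 and 4047 ± 169.

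In 1 of 65 members the groups did not overlap, which was Dnajb2, picked out after its values were seen. This J protein carries ubiquitin-binding motifs and hands clients to the proteasome. It had 1381, 1371, 1434 and 1390 normalized reads in controls and 1337, 1325, 1335 and 1293 in Acot2 mKO libraries, with a log2 fold change of -0.08 (SE 0.05). Non-overlapping groups with lower Acot2 mKO values occurred in 0.997% of all genes and in either direction in 1.92%, so 1 of 65 is near the background. Its limma p was 0.181 before adjustment.

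In the endoplasmic reticulum group the estimates of 9 of 14 genes lay above 0 (median 0.05). Hspa5 (BiP), the HSP70 of this compartment, was the most abundant at 1434 ± 91.6 reads per kb, followed by Hsp90b1 (GRP94), its HSP90, at 1131 ± 72.5. Hspa5 had 5251, 5036, 5494 and 5386 normalized reads in controls and 5244, 5025, 5530 and 6096 in Acot2 mKO libraries (log2 fold change 0.05, SE 0.07). Acot2 mKO replicates 3 and 4 lay above the control range and the other two inside or just below it. Hsp90b1 had 3078 ± 133 and 3310 ± 211, and Dnajc3 (p58IPK, a J protein that is induced by endoplasmic reticulum stress) 2140 ± 80.8 and 2274 ± 93.0. Dnajb12, a membrane J protein that sends misfolded proteins to degradation, had 1841 ± 78.3 and 1812 ± 103.

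Promoter windows were searched for the endoplasmic reticulum stress element, CCAAT and CCACG separated by 9 bases, on both strands. RefSeq windows, which run from 250 bases before to 50 after a start site, were found for 53 of 65 members (69 windows). The members without a window, among them Hsp90ab1, Hspa8, Hspa9 and Hsp90aa1, were not searched for any pattern. The element was present in 3 of 69 windows (4.35%), those of Dnajc3, Hsp90b1 and Hspa5, against 0.119% of all 32851 windows. The region before the Hspa5 start is shown as the plain example, with the element in capitals beginning 65 bases before the start (GRCm38.p6, chr2:34771840-34772089, plus strand).
Hspa5: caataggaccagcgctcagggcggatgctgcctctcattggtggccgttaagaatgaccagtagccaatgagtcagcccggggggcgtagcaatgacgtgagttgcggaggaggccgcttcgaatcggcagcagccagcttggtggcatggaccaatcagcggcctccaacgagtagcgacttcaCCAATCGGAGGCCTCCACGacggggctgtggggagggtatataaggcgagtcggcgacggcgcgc

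For mitochondrial genes, 9 of 10 estimates lay above 0 (median 0.07). That count was 4 of 10 without Acot2 mKO replicates 3 and 4, with a median of -0.002. Hspa9 (mortalin), the matrix HSP70 that pulls proteins through the inner membrane, had 14370, 12519, 15780 and 13647 normalized reads in controls and 12881, 14357, 17650 and 15249 in Acot2 mKO libraries. The highest and the lowest library were Acot2 mKO replicate 3 and control replicate 2, and the groups overlapped (log2 fold change 0.09, SE 0.10). Hspd1 and Hspe1 encode the barrel and the lid of the mitochondrial chaperonin, HSP60 and HSP10. Hspd1 had 5302 ± 295 and 5681 ± 426, and Hspe1 1162 ± 152 and 1286 ± 36.4. Of their 50-base stretches, 42.1% for Hspd1 and 22.8% for Hspe1 also occur in other genes. Hspe1 had a log2 fold change of 0.16 (SE 0.09, interval -0.04 to 0.35). Without control replicate 3, its p before adjustment was 0.00823 and its adjusted p stayed above the threshold at 0.925.

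Dnaja3 (Tid1), the matrix J protein of mortalin, had 3476 ± 179 and 3618 ± 249 normalized reads. Dnajc15, a J protein of the import motor, had 1485 ± 24.0 and 1494 ± 70.3 and was among the steadiest members. Dnajc11, which is associated with the cristae-organizing complex and was named for having the smallest p, had 1148, 1045, 1105 and 973 in controls and 1136, 1212, 1143 and 1178 in Acot2 mKO libraries. Control replicate 4 was the lowest of these, and control replicate 1 lay inside the Acot2 mKO range.

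Hspd1 and Hspe1 sit head to head on chromosome 1. The stretch before the Hspe1 start, which 1 of the 2 RefSeq windows of Hspd1 also covers, holds the full pattern of 3 heat shock units (GAANNTTCNNGAA, both strands), in 2 overlapping copies that begin 89 and 84 bases before the Hspe1 start. It is shown over 30 bases with the match in capitals (GRCm38.p6, chr1:55088053-55088082, plus strand). The same pattern in Hsph1 begins 16 bases after the start (GRCm38.p6, chr5:149636280-149636309, minus strand), and the 2 are set side by side because they hold the full pattern in inducible members.
Hspe1: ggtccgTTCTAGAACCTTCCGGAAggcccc
Hsph1: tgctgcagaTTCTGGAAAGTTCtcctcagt

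The 3-unit pattern was found in 6 of 69 member windows (8.70%), against 0.603% of all windows. These windows belong to 4 genes: Dnajb6 and Hsph1 with 2 each, and Hspd1 and Hspe1 with 1 each over the same stretch. The shares thus count windows, which can hold the same site, and members without a window were not searched. The shorter 2-unit pattern was found in 24.6% of member windows and 15.1% of all windows, and every 3-unit match also counts as a 2-unit match. Hspa1a and Hspa1b held only the shorter pattern within these windows. A match describes letters and not binding, and its relation to the level of a gene was not tested.

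All 6 small heat shock genes had estimates above 0 (median 0.12, the largest of the 5 group medians). This count was 5 of 6 under quantile normalization and without control replicates 2 and 3. Of the fits without 1 library, only the fit without Acot2 mKO replicate 3 kept 6 of 6. The count was 3 of 6 without control replicate 2 (median 0.01) and 5 of 6 without any other single library. Without Acot2 mKO replicates 3 and 4 it was 3 of 6 (median 0.02). Hspb8, which works with Bag3 in the autophagic removal of damaged Z-disc proteins, was the most abundant of them. It had 12310, 12817, 11684 and 11026 normalized reads in controls and 14392, 12670, 11601 and 9886 in Acot2 mKO libraries. The Acot2 mKO libraries enclosed the whole control range, and the group means of 11960 and 12137 differed by far less than their SD of 776 and 1891. Hspb1 (HSP25 in mice) had 1894 ± 343 and 1922 ± 132, with 50.1% of its 50-base stretches shared with a pseudogene or another gene. Hspb2 and Hspb3, which form a complex in muscle, had 1038 ± 65.6 and 1110 ± 59.7, and 528 ± 83.8 and 583 ± 65.2. The exons of Hspb2 overlap those of Cryab on the opposite strand over 252 bases. Of the 50-base stretches of Hspb2, 24.4% also occur in Cryab, so reads of the 2 genes may not be separated.

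The spread between animals was then compared across members. Across all 8 libraries the SD of log2 values had a median of 0.12 for the members, against 0.18 over all genes tested, and it was under 0.2 for 51 of 65 members and under 0.3 for 58. The members were also more abundant than the average gene, with a median of 1074 against 316 normalized reads, and low genes vary more through counting. The steadiest were Hspa4 (SD 0.04, 3568 to 3862 normalized reads), Dnajc14 (0.04), Dnajb2 (0.05) and Dnajc15 (0.05). The most variable were Hspb7 (0.95), Hspa1a (0.56), Hspa1b (0.49), Hspa2 (0.39) and Dnaja4 (0.39). Hspb7 exceeded 97.7% of all genes tested in this spread.

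**Figure D3:**
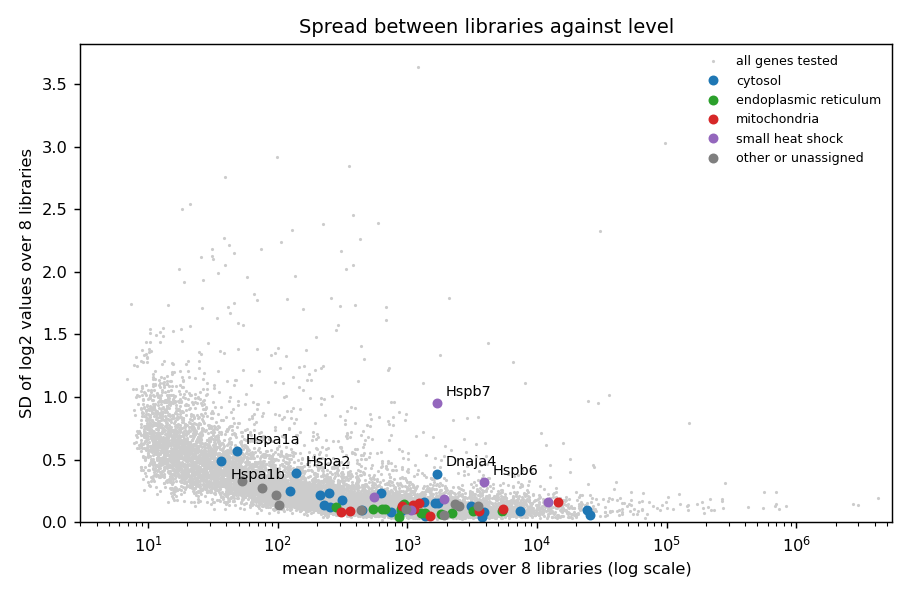
SD of log2 values over 8 libraries (y axis) against mean normalized reads (x axis, log scale) for the 65 genes, coloured by compartment, and all 13638 genes tested (grey). Hspb7 at 0.95 stands above the other members, and 51 of 65 members lie under 0.2.

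Hspb7, a small heat shock protein of heart and skeletal muscle that binds the cross-linker filamin C, had 1040, 422, 2288 and 2543 normalized reads in controls and 838, 1411, 2301 and 2675 in Acot2 mKO libraries. Its highest library was 6.34 times its lowest. Replicates 3 and 4 of both genotypes were high and replicates 1 and 2 of both were low, so the spread ran across the genotypes. These are also the 4 libraries with high Myh2. The replicate numbers carry no meaning across groups, and the labels give no batch.

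Hspb6 (HSP20), a small heat shock protein of smooth and striated muscle, showed the same split into 4 high and 4 low libraries over a narrower range. It had 3184, 2545, 4682 and 4499 normalized reads in controls and 3333, 3872, 4401 and 4574 in Acot2 mKO libraries. Dnaja4, a J protein abundant in muscle, had 1469, 926, 1974 and 2103 in controls and 1488, 1580, 1894 and 1997 in Acot2 mKO libraries. Part of Dnaja4's exons, 1581 bases, overlap Wdr61 on the opposite strand. In both genes control replicate 2 was the lowest library and the 4 libraries high in Myh2 were the 4 highest.

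In 8 of 65 members (12.3%) the 4 highest libraries were the 4 highest in Myh2, against a background of 3.76% of all genes tested. These were Dnaja3, Dnaja4, Dnajc27, Hspa1b, Hspa1l, Hspa5, Hspb6 and Hspb7. In 3 of 65 (4.62%, background 2.82%) the 4 lowest libraries were those 4: Dnajc13, Hsp90ab1 and Hspb8. This way of counting was chosen after the values of Hspb7 had been seen, and the libraries form a pair of clusters in Myh2, so the counts are a description with no test. Hspb8 ran from 12310 to 14392 in the 4 libraries low in Myh2 and from 9886 to 11684 in the other 4. Hspb6 ran from 2545 to 3872 and from 4401 to 4682. Hspb8 and Hspb6 were thus split in opposite directions over the same libraries.

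**Figure D4:**
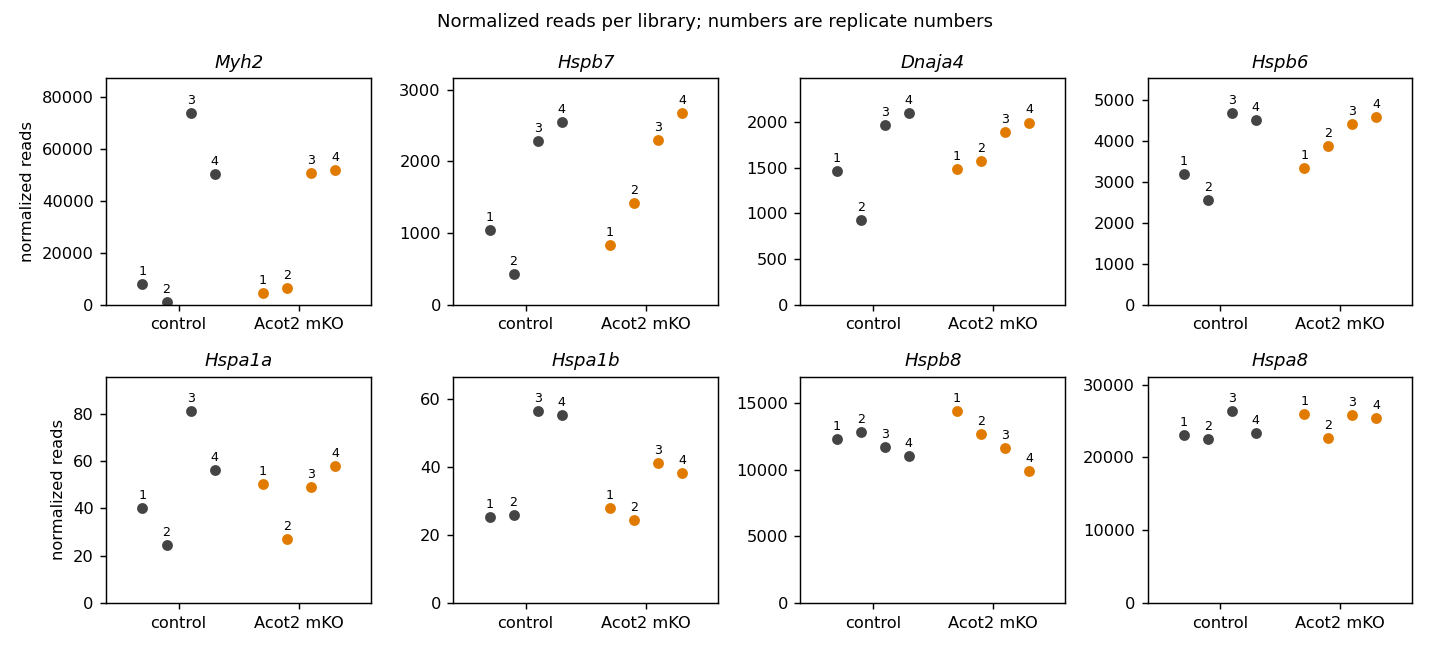
Normalized reads (y axis, from 0) in each library (points, numbered by replicate) of Myh2 and 7 members, control in grey and Acot2 mKO in orange. Hspb7, Dnaja4, Hspb6 and Hspa1b are highest in replicates 3 and 4 of both groups, Hspb8 is lowest there, and Hspa8 stays between 22578 and 26327.

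The 10 genes outside these compartments also gave no call. Dnajc27, a Rab-like GTPase with a J domain, had 3447 ± 417 normalized reads in controls and 3532 ± 176 in Acot2 mKO muscle. Dnajc13, an endosomal J protein, had 2722, 2727, 2232 and 2371 in controls and 2627, 2649, 2229 and 2329 in Acot2 mKO libraries, with replicates 3 and 4 of both groups low. Dnajc21, which acts in ribosome assembly, had 2278 ± 243 and 2400 ± 260.0, and Dnajc5 (cysteine string protein, of secretory vesicles) 1944 ± 53.0 and 1854 ± 58.1. Hspb11, an intraflagellar transport protein in spite of its name, had 48.7 ± 10.7 and 57.3 ± 13.5.

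Summed by compartment, normalized reads were 80191 ± 2098 in controls and 81861 ± 2224 in Acot2 mKO muscle for the cytosol, 20773 ± 215 and 21364 ± 711 for the endoplasmic reticulum, 29187 ± 2049 and 31006 ± 2957 for mitochondria, and 20720 ± 1736 and 21603 ± 660.3 for small heat shock proteins (SD, n = 4 each). In each compartment the 2 group means differed by less than the larger of the 2 SD, which is not a test. For the endoplasmic reticulum they differed by more than the control SD of 215. There, Acot2 mKO replicates 1, 3 and 4 (21150, 21140 and 22396) lay above the highest control library (21022). Acot2 mKO replicate 2 (20768) lay inside the control range.

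The partners and regulators of these chaperones were read from the same fit, and 0 genes of any list had a limma adjusted p under 0.05. Of the 4 heat shock factors, the transcription factors of this response, 3 lay above 0 in log2 fold change (median 0.02), and Hsf2 had 1072 ± 58.2 and 1125 ± 51.3 normalized reads. Of 11 HSP70 partners 8 were above 0, with Stub1, the ubiquitin ligase CHIP, at 1306 ± 41.4 and 1370 ± 76.0. All 8 subunits of the cytosolic chaperonin TRiC were above 0, with a median of 0.06, and its subunit Cct7 had 2879 ± 112 and 3023 ± 126. Of 6 prefoldin subunits, which pass nascent actin and tubulin to TRiC, 5 were above 0, and Vbp1 had 1525 ± 122 and 1651 ± 90.8.

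Of 16 HSP90 partners 14 were above 0, and 1 had an unadjusted p under 0.05, where 2.91% of all genes tested did. This was Unc45a, named here because it had the smallest p of the list, the general form of a myosin-folding chaperone whose muscle form is Unc45b. It had 264, 224, 297 and 242 normalized reads in controls and 200.3, 196, 219 and 217 in Acot2 mKO libraries. The groups did not overlap, as in 1.92% of all genes tested, and the log2 fold change was -0.29 (SE 0.11, limma adjusted p = 0.9995). Unc45b, with 9188 ± 566 and 9204 ± 602 normalized reads, overlapped between groups.

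In the endoplasmic reticulum folding list, 14 of 19 genes were above 0 with a median of 0.02. Pdia4, a disulfide isomerase, had the smallest p of this list, with 433 ± 32.0 and 501 ± 58.2 normalized reads (log2 fold change 0.20, SE 0.10). Of 11 mitochondrial folding genes 9 were above 0 (median 0.07), and Timm44, which tethers mortalin to the import channel, had 1465 ± 168 and 1572 ± 152. Of 4 J proteins with other names that were tested, 3 were above 0, and Sec63 of the translocon had 1010 ± 71.7 and 963 ± 56.6.

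Cryab, the alpha B crystallin that belongs to the small heat shock family under another name, had 5460, 4454, 9532 and 8531 normalized reads in controls and 7148, 5618, 7995 and 8052 in Acot2 mKO libraries. At 5499 ± 1359 reads per kb it stood between Hspb8 and Hspb6, and its 4 highest libraries were again the 4 highest in Myh2. Its relative Cryaa was listed at 0 in all 8 libraries.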

How the data were processed

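The deposited table holds log2 values of x + 1 per gene, where x is a read count divided by 1 factor per library, the normalized reads of the text. This was found from the values: below 1000 reads, 100% lay within 0.1 of a whole multiple of the smallest value. DESeq2, cutadapt, FastQC, STAR, HTSeq and GRCm38 appear in the submitters' processing notes without version or role. The sources used here do not say whether strand entered the counting. The pseudocount of 1 understates changes of low genes, and 27 names turned into dates were restored by gene number. The groups were fitted with limma 3.58.1 under R 4.3.3 (variance trend on mean level) over all 13638 genes that reached 10 normalized reads in 4 or more libraries, with Benjamini-Hochberg adjustment and a threshold of 0.05. The fit was tested on simulated data with independent noise and with changes larger than any member estimate. That test does not show how well changes as small as the member estimates would be found. Exon lengths, shared 50-base stretches and overlaps are from GENCODE M21.

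Libraries of a group differed by 26.0 to 79.2 in chi-square per gene, far above sampling noise near 1, so each counted as 1 replicate. Animal numbers in the titles point to separate mice. The members and lists were chosen with earlier results of these data known. Named genes were the 4 most abundant per compartment, a heat-inducible set, the 5 most variable members, the smallest p of each partner list and Acot2. Dnajb2, Dnajb6, Dnajc11, Dnajc14, Hspa1l, Hspa4, Hspb2, Hspb3, Hspb11, Unc45b and the genes counted beside Myh2 were named after their values were seen, as were those in the closing section. Alternatives were pseudocounts of 0.5 and 10, omitting the filter, requiring a mean of 100 normalized reads, quantile and upper-quartile scaling, library weights, limma-voom on recovered reads, a replicate block, and fits without single libraries, without control replicates 2 and 3, or without Acot2 mKO replicates 3 and 4.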

Additional observations from a re-analysis of the deposited data

Results flagged for a closer look

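In 148 checks of 1 gene in 1 group of 4 libraries, 6 found a library far from the others, and chance alone does so in about 1 of 20 groups. Hspa4, an exchange factor for HSP70, had 3568 normalized reads in control replicate 1 against 3772 to 3807 in the other controls. Hspd1 (HSP60) had 5740 in control replicate 3 against 5098 to 5191. Dnajc12 had 245 in control replicate 2 against 315 to 326, and Hspa12a, a distant HSP70 relative, had 267 there against 211 to 221. Dnajb5 had 4299 in Acot2 mKO replicate 1 against 3940 to 3995. Dnajb6, a J protein known from inherited muscle disease, had 792 in Acot2 mKO replicate 4 against 933 to 953.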

How the results depend on the processing

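The count of 0 of 65 members called by adjusted p held in all 19 alternatives, among them limma-voom and the fits without control replicates 2 and 3 or without Acot2 mKO replicates 3 and 4, and 2 genes of the whole table were called in each. Each pair of adjacent animal numbers held 1 control and 1 Acot2 mKO mouse. Deviations from the group means were weakly correlated within these pairs (0.15, -0.08, 0.19 and -0.08). Such correlations over all genes cannot settle whether the mice were paired by design. With the replicate block, 0 members were called and the smallest unadjusted p was 0.0663. At an unadjusted p under 0.05 the count was 0 to 1 when 1 library was left out (Dnajc2 without Acot2 mKO replicate 2, Dnajc11 without control replicate 1, Hspe1 without control replicate 3) and 2 without control replicates 2 and 3 (Dnajc1 and Hspe1). The endoplasmic reticulum median ran from 0.018 to 0.054 over fits without 1 library (lowest without Acot2 mKO replicate 4) and was 0.020 without Acot2 mKO replicates 3 and 4. The median of the endoplasmic reticulum folding list ran from -0.0058 (without Acot2 mKO replicate 4) to 0.073 (without Acot2 mKO replicate 2). No named member had an adjusted p under 0.05 in any of these fits. Of 38 named genes, 19 had 59 values of the other sign, all of which had an adjusted p above the threshold. The cause was not tested. By log2 fold change these were 0.00698 for Dnajc13, -0.00141 for Hspa2 and 0.00699 for Hsph1 with library weights, -0.00138 for Dnajc15, 0.0208 for Hspa1a and -0.00163 for Hspb8 with quantile normalization, and 0.00672 for Hsp90aa1, 0.00180 for Hspa1a and 0.00869 for Hsph1 with limma-voom. Without Acot2 mKO replicates 3 and 4 they were -0.00237 for Dnaja3, -0.00770 for Dnaja4, 0.0324 for Dnajb12, 0.0756 for Dnajc13, -0.00143 for Dnajc15, -0.0176 for Dnajc27, 0.0144 for Hsp90ab1, -0.14 for Hspa2, -0.0432 for Hspa5, -0.0449 for Hspa9, -0.0115 for Hspb1, -0.00895 for Hspb6, -0.22 for Hspb7, 0.0466 for Hsph1 and -0.0736 for Cryab. Without control replicates 2 and 3 they were -0.0255 for Dnaja4, -0.00755 for Dnajc15, -0.0247 for Dnajc27, 0.0686 for Hsp90aa1, -0.0136 for Hspa2, -0.0456 for Hspb1 and 0.00722 for Sec63. Over the fits without 1 library the estimates ran from -0.0974 to 0.27 for Cryab, -0.0813 to 0.31 for Dnaja4, -0.0556 to 0.0107 for Dnajb12, -0.0853 to 0.0157 for Dnajc13, -0.0227 to 0.0313 for Dnajc15, -0.0416 to 0.0917 for Dnajc27 and -0.0676 to 0.0773 for Hsp90aa1. They also ran from -0.35 to 0.21 for Hspa1a, -0.0989 to 0.26 for Hspa2, -0.00735 to 0.0855 for Hspa5, -0.0561 to 0.14 for Hspb1, -0.0173 to 0.28 for Hspb6, -0.15 to 0.71 for Hspb7, -0.0762 to 0.10 for Hspb8 and -0.0543 to 0.0617 for Hsph1. Depth limits Hspa1a and Hspa1b most, at 20 to 85 reads per library.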

Other observations

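J proteins of the endoplasmic reticulum not described above gave overlapping groups as well. Dnajb9 (ERdj4) had 909.7 ± 74.9 normalized reads in controls and 862 ± 48.7 in Acot2 mKO muscle (SD, n = 4 each). Dnajc1, a membrane J protein near the ribosome, had 564 ± 40.3 and 515 ± 25.5, a log2 fold change of -0.13 (SE 0.08). Hspa13, an HSP70 relative of this compartment, had 648 ± 54.7 and 686 ± 36.0. In the cytosol, Dnajc2, a J protein bound to ribosomes, had 869 ± 69.2 and 968 ± 79.1 (log2 fold change 0.16, SE 0.08). Bag3, the exchange factor that works with Hspb8, had 1604 ± 268 and 1627 ± 155. None of these passed the limma threshold.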
